A study of Mus musculus with 20 samples.

Results

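The proteasome and ubiquitin protease genes were taken here as every gene named in the peak lists whose symbol is Psm followed by one letter from a to g and a number, or Usp followed by a number. The rule found 92 genes, 46 with proteasome symbols and 46 with Usp symbols. They held 2300 of the 504887 ATAC-seq peaks in 10 lists, and 366 of the 88351 regions formed when overlapping peaks of all lists were merged. By name alone the rule also takes Psmc3ip, a partner of the meiotic recombinases, and Usp6nl, a GTPase-activating protein for Rab proteins, and neither is a proteasome subunit or a protease. Both stand in the counts, since the rule holds them. Without Psmc3ip the proteasome family has 1 promoter peak fewer in each list and the same distal peaks. Without Usp6nl the Usp family has 1 promoter peak fewer in each list, and 86 distal peaks at 0 h and 26 at 120 h in place of 99 and 29.

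The cells were ER-Hoxa9-Lys-GFP cells of strain C57BL/6, cultured in medium with stem cell factor (SCF). They carry the homeobox protein Hoxa9 fused to the estrogen receptor (ER), so that its activity depends on estradiol (E2). All 20 samples carry this fusion. The 0 h group was grown with E2, and the 9 later groups were taken 4, 8, 12, 24, 36, 48, 72, 96 and 120 h after E2 was washed out, with 2 samples each. Per the labels' protocols the nuclei of a preparation were divided between transposition reactions, so the samples of a time may be technical replicates, and the labels do not say whether the line is 1 clone. The 2 samples of a time share 1 deposited list. With 1 list per time no difference here has a replicate check, and no test was possible. Shares carry 95% Wilson intervals, which cover counting error only. The lists give positions but no read counts, so the depth behind a peak is unknown, and a peak that is not listed may be accessible below the authors' threshold.

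ATAC-seq marks open chromatin, where the transposase Tn5 can insert. The proteasome is the cell's main machine for degrading proteins tagged with ubiquitin. Its 20S core is built from alpha subunits (Psma), which form the gate, and beta subunits (Psmb), which hold the proteolytic sites. The 19S cap, made of ATPases (Psmc) that unfold the substrate and non-ATPase subunits (Psmd) that bind and trim ubiquitin, sits on the core, and other activators (Psme) can take its place. Immune cells can exchange the catalytic beta subunits for the inducible Psmb8, Psmb9 and Psmb10. The ubiquitin-specific proteases (Usp) work in the opposite sense and remove ubiquitin from proteins, among them histones H2A and H2B.

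A promoter peak was one whose centre lay at most 1000 bp from the transcription start site (TSS) given in the lists, and a distal peak any other. The lists shortened late in the series, from 55261 peaks at 0 h to 23620 at 120 h. Of 12 myeloid marker genes, such as the transcription factor Spi1, all 12 had a peak in some list and 10 had a promoter peak in some list. Over the series 11902 of 19738 genes did. At 0 h 7 of the 12 had a promoter peak and at 120 h 7, with 4 at both times and 1 in all 10 lists. The granule protease genes Elane and Prtn3 were listed with distal peaks only. Of 13 markers of T, B, erythroid, epithelial and neuronal cells, all 13 had a peak in some list and 3 had a promoter peak in some list. At 0 h 2 of these had one and at 120 h 1, the B cell gene Ebf1, which had it in all 10 lists.

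The sequences below stand for the promoters that were listed throughout. For each role the member with the widest median promoter peak is shown, with the 120 bases just upstream of its RefSeq start (build GRCm38.p6), 5′ to 3′ on the gene's strand. Capitals mark matches on either strand to the motifs ETS (CCGGAAG), Sp/KLF (GGGCGG), NF-Y (CCAAT), ARE (TGACNNNGC) and E-box (CACGTG), and neighbouring matches can run together. Psma3 is an alpha subunit, Psmb5 the beta subunit with chymotrypsin-like activity, Psmc6 a cap ATPase, Psmd14 the cap's own deubiquitinase, Psmg4 an assembly chaperone, Psme4 the activator PA200, Usp12 a protease with histone substrates and Usp15 a protease with substrates in growth factor signalling.
Psma3 (chr12:70974503-70974622, plus strand): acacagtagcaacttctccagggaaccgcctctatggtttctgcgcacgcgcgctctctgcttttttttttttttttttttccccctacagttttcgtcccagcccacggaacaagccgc
Psmb5 (chr14:54617996-54618115, minus strand): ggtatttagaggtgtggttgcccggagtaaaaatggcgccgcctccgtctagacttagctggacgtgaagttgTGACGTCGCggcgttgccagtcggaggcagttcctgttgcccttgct
Psmc6 (chr14:45329704-45329823, plus strand): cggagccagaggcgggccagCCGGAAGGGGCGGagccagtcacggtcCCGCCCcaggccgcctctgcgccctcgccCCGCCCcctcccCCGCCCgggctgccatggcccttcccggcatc
Psmd14 (chr2:61711574-61711693, plus strand): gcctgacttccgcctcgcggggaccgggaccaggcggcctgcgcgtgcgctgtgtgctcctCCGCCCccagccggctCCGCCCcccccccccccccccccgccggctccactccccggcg
Psmg4 (chr13:34162844-34162963, plus strand): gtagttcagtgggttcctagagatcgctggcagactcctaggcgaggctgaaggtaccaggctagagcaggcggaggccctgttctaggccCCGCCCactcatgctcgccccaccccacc
Psme4 (chr11:30771655-30771774, plus strand): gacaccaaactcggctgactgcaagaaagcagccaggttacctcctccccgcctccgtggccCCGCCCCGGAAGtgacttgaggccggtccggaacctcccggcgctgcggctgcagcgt
Usp12 (chr5:146794957-146795076, minus strand): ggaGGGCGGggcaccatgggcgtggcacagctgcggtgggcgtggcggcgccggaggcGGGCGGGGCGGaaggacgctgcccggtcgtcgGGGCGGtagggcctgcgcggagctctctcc
Usp15 (chr10:123197020-123197139, minus strand): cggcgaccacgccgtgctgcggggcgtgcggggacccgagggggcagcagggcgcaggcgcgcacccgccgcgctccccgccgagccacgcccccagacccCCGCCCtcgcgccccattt

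A second set stands for genes that were assigned a promoter peak at 0, 4 and 8 h and no longer at 96 and 120 h. For Psmd13 the start was still under a peak at 96 and 120 h, assigned to the neighbouring gene Sirt3. Psmb10 is an inducible beta subunit, Psmd13 a cap subunit, and Usp40 and Usp47 are ubiquitin proteases.
Psmb10 (chr8:105938393-105938512, minus strand): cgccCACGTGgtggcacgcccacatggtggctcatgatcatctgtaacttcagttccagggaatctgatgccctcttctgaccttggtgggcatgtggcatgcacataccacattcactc
Psmd13 (chr7:140882274-140882393, plus strand): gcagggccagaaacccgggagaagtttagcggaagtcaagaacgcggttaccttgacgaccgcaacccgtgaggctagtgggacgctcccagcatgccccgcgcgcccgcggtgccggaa
Usp40 (chr1:88008552-88008671, minus strand): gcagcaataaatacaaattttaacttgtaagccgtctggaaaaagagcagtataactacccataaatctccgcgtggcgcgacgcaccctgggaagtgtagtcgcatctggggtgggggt
Usp47 (chr7:112023386-112023505, plus strand): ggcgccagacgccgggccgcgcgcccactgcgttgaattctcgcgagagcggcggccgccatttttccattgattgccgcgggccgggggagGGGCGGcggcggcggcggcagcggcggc

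The other inducible beta subunits, Psmb8 and Psmb9, are shown because their peaks are given site by site among the results.
Psmb8 (chr17:34198075-34198194, plus strand): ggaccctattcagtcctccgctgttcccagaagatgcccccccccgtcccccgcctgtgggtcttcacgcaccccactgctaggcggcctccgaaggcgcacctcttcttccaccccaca
Psmb9 (chr17:34187331-34187450, minus strand): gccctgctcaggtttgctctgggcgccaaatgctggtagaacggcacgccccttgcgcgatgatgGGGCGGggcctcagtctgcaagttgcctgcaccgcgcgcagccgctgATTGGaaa

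Of the 92 genes, 74 matched the RefSeq promoter table, and for 1 promoter per gene the 250 bases upstream of the start were searched. The ETS motif was in 13 of 40 proteasome promoters (32.5%) and 7 of 34 Usp promoters (20.6%), against 7.26% of all 27025 promoters and 15.4% of the 9171 whose start lay under a 0 h peak. Sp/KLF was in 52.5% of the proteasome and 67.6% of the Usp promoters, against 59.5% of all promoters under a 0 h peak. NF-Y was in 32.5% and 17.6%, against 36.9%. The antioxidant response element ARE was in 12.5% and 11.8%, against 12.3%, and the NRF1 motif GCGCATGC was in 2.50% and 2.94%, against 4.66%. The interferon response motif GAAANNGAA was in 3 proteasome and 2 Usp promoters (7.50% and 5.88%), against 6.07% of all promoters under a 0 h peak. The E-box was in 4 and 4 (10.0% and 11.8%), against 8.84%, and the CRE motif TGACGTCA in 0 and 0, against 2.79%. GC content had a median of 58.0% over the proteasome promoters, 65.4% over the Usp promoters and 60.0% over all promoters under a 0 h peak. The ETS match thus stood in a larger share of the proteasome promoters than of the listed promoters, with 13 promoters (12 without Psmc3ip) behind it. The Usp share for ETS, with 7 promoters, and the proteasome share for NF-Y were near those of the listed promoters. The NF-Y share of the Usp promoters was lower, with 6 promoters behind it. These shares carry no interval, and the family sets include promoters whose start was not under a 0 h peak. The other motifs did not differ in the same direction in both families or rested on 5 promoters or fewer. A match is a description of these letters and no evidence of binding.

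Promoter peaks of both families were about as many at the end as at the start, and distal peaks fell. From 0 to 120 h the proteasome genes held 38, 38, 39, 37, 39, 40, 40, 39, 40 and 38 promoter peaks. The Usp genes held 35, 38, 35, 38, 35, 34, 37, 37, 35 and 36. Over all genes promoter peaks went from 10607 to 8968. Distal peaks of proteasome genes numbered 65, 69, 62, 75, 76, 77, 76, 63, 26 and 22. Those of Usp genes numbered 99, 96, 105, 112, 121, 123, 119, 93, 44 and 29. Both families had their highest distal count at 36 h and their lowest at 120 h, although without Usp6nl the Usp count was 111 at both 24 and 36 h. The largest step down came between 72 and 96 h. Distal peaks of all genes took a like course, from 44654 at 0 h to a highest count of 51362 at 24 h. Their largest step down was also from 72 h (36478) to 96 h (20226), and their lowest count was 14652 at 120 h.

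The log2 ratio of distal peaks at 120 h to those at 0 h, with 0.5 added to each count, was -1.54 for proteasome genes and -1.75 for Usp genes. Over all genes it was -1.61, from 44654 to 14652 distal peaks. The distal counts of the families thus moved about as those of all genes did in the full lists. Among the widest 50% of each list the Usp ratio was -3.17, against -2.12 over all genes. The Usp ratio was thus lower there, but fewer peaks stand behind it and it carries no interval. When every list was reduced to its widest peaks, as many as the 23620 of the 120 h list, the ratio was 0.13 for proteasome genes, -0.42 for Usp genes and -0.03 for all genes. The proteasome ratio changed sign and the fall of the Usp distal peaks was smaller. In lists of equal length the distal peaks of all genes can fall only as far as promoter peaks rise. These ratios therefore cannot show the part of list length in the fall, which was not tested.

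Of the 38 proteasome promoter peaks at 0 h, 35 overlapped a peak at 120 h (92.1%, 79.2 to 97.3), and of the 35 Usp promoter peaks 31 did (88.6%, 74.0 to 95.5). Over all 0 h promoter peaks the share was 75.0%, which is below the proteasome interval and inside the Usp interval. The proteasome share was between 89.5% and 97.4% at every time after 0 h, and the Usp share between 85.7% and 97.1%. Peak width moved with this share. Of the 0 h promoter peaks of at least 836 bp, the median of all genes, 22 of 22 proteasome peaks, 23 of 25 Usp peaks and 87.9% of all peaks were kept. Of the narrower ones, 13 of 16, 8 of 10 and 62.1% were. Wide promoters were kept more often in all 3 groups, and the part of width in the families' shares was not tested.

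Distal peaks were kept far less often. Of 65 proteasome distal peaks at 0 h, 17 overlapped a peak at 120 h (26.2%, 17.0 to 38.0), and of 99 Usp distal peaks 17 did (17.2%, 11.0 to 25.8). The proteasome peaks kept include those over the RefSeq starts of Psmc1 and Psmc2, which the distance rule counts as distal. The share over all 0 h distal peaks was 22.5%, within both intervals. At 72 h, 70.8% of the proteasome and 55.6% of the Usp distal peaks were still overlapped, against 54.3% over all genes, which lies below the proteasome interval (58.8 to 80.4) and inside the Usp interval (45.7 to 65.0). At 96 h the shares were 35.4% and 27.3%, against 30.6% over all genes.

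**Figure D1:**
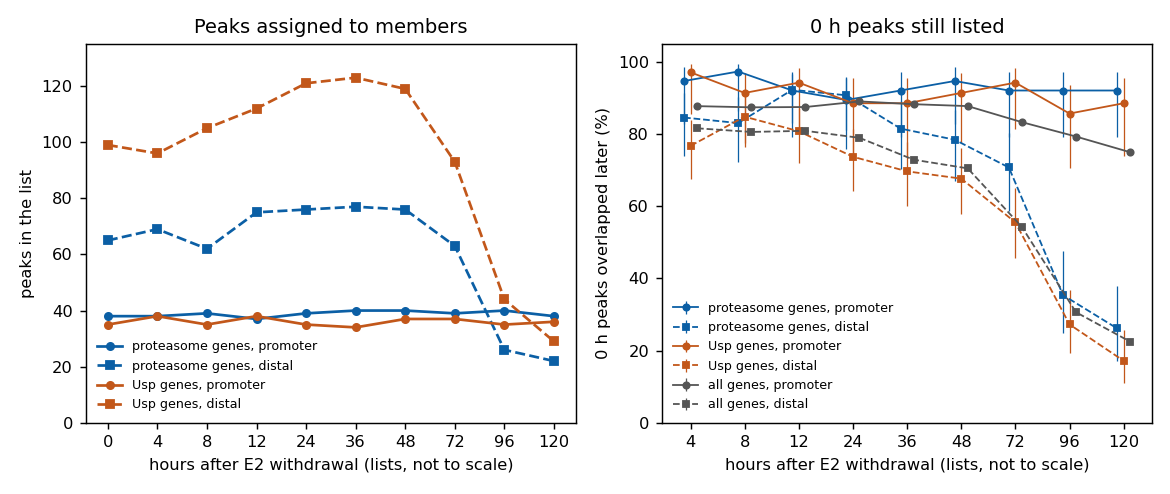
Left, number of promoter and distal peaks (y axis) assigned to proteasome and Usp genes in each of the 10 lists, in hours after E2 withdrawal (x axis, lists evenly spaced). Right, percent of 0 h peaks overlapped by a peak of each later list, for both families and all genes, with 95% Wilson intervals. Promoter counts stay between 34 and 40, while distal counts end at 22 and 29.

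The promoter peaks that were not kept at 120 h belong to few genes. In the proteasome family they were 1 of 2 peaks of Psmb8 and both peaks of Psmb10, all from inducible subunits. In the Usp family they were the peaks of Usp5, which takes apart free ubiquitin chains, and of Usp40, Usp47 and Usp50. At 96 h the unmatched promoters were those of Psmb10, Psmd6, Usp3, Usp40, Usp42, Usp47 and Usp50, and those of Psmd6, Usp3 and Usp42 were listed again at 120 h.

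Counted by gene, 43 proteasome genes had a promoter peak in some list and 28 of them (65.1%) in all 10. For Usp genes it was 21 of 39 (53.8%), and for all genes 42.0%. Without Psmc3ip and Usp6nl, both listed throughout, the counts were 27 of 42 and 20 of 38. A promoter peak at 0 h and none at 120 h was seen for 2 of 35 proteasome genes and 4 of 34 Usp genes, against 22.8% of all genes. The reverse, at 120 h and not at 0 h, was seen for 5 of 38 proteasome and 5 of 35 Usp genes, against 14.5% of all. Gain of a listed promoter was thus near the background in both families (13.2% and 14.3%). For loss, the all-gene share lay above the proteasome interval (5.71%, 1.58 to 18.6) and inside the Usp interval (11.8%, 4.67 to 26.6). All these shares follow the assigned gene. Among the losses, the start of Psmd13 was still under a peak at 120 h, assigned to Sirt3. The lost Usp50 peak lay in an intron, and its RefSeq start was under a peak in no list.

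Promoter peaks of the families differed in width. The median was 868 bp for proteasome and 979 bp for Usp promoters at 0 h, 744.5 and 855 bp at 36 h, and 832.5 and 1031.5 bp at 120 h. Over all promoter peaks it was 836, 732 and 861 bp at those times. Usp promoters were wider than those of all genes in these 3 lists, and proteasome promoters were wider at 0 and 36 h and narrower at 120 h.

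**Figure D2:**
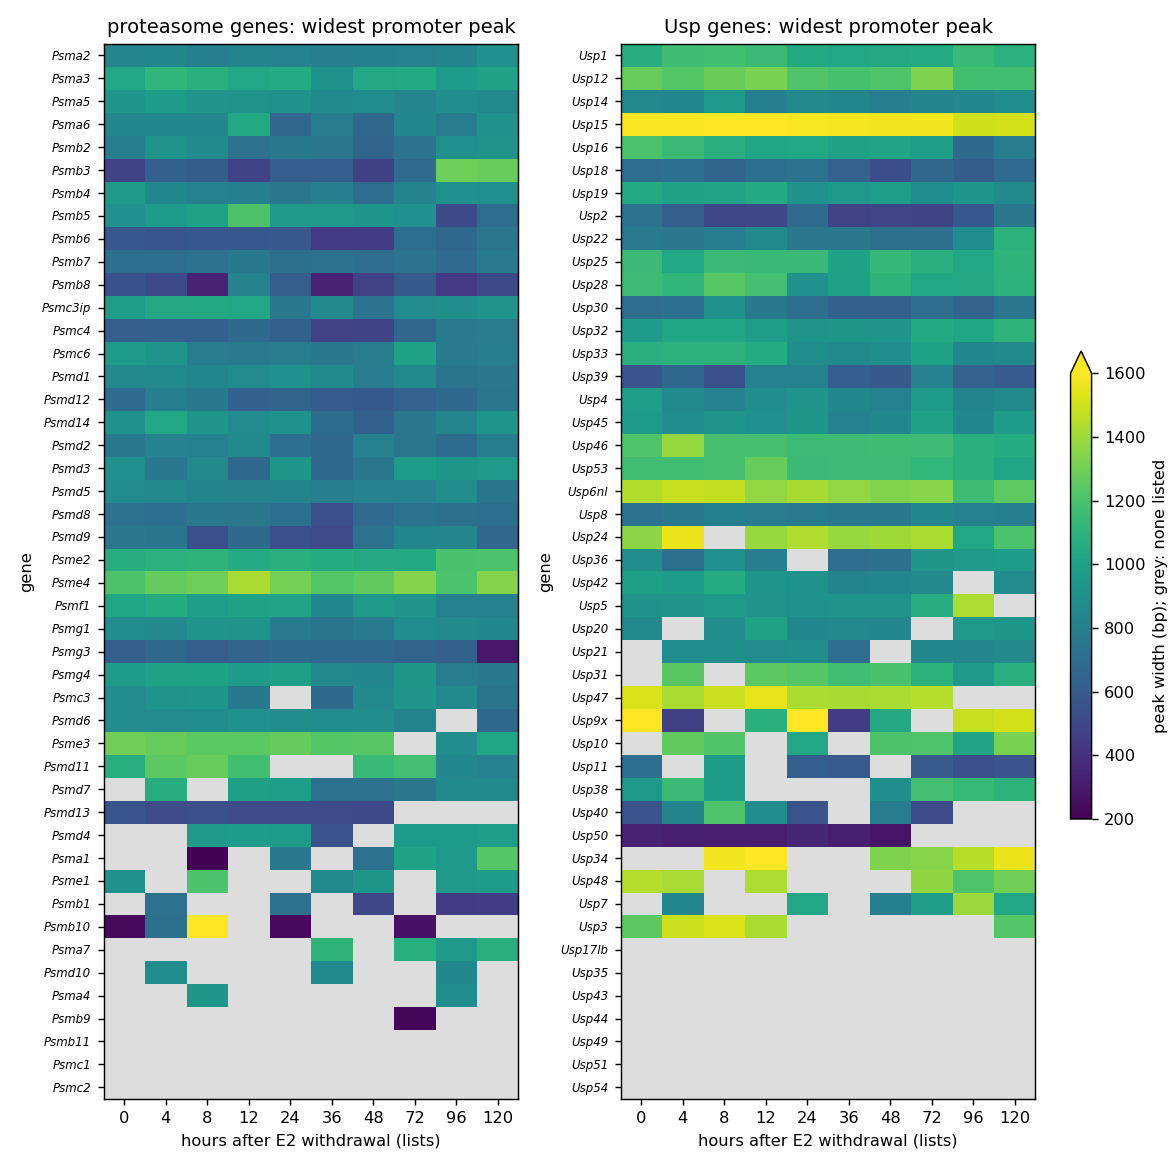
Width in bp of the widest promoter peak of each proteasome gene (left) and Usp gene (right) in each list (x axis, hours after E2 withdrawal). Rows are genes, ordered by the number of lists with a promoter peak. Grey means none listed, and widths above 1600 bp share the top colour. The top 28 and 21 rows are listed throughout.

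Among the alpha subunits, which form the outer rings and the gate of the core, 4 of 7 had a promoter peak in all 10 lists. Psma1 had promoter peaks at 8, 24, 48, 72, 96 and 120 h, of 208, 765, 727, 1005, 952 and 1233 bp. None was listed for it at 0, 4, 12 and 36 h, and the widest was at 120 h. Psma7 had them at 36, 72, 96 and 120 h, of 1109, 1077, 953 and 1084 bp. For Psma7, 3 further lists (4, 8 and 24 h) held a peak over its RefSeq start that was assigned to the divergent neighbour Ss18l1, so its start was covered in 7 lists. Psma4 was listed at 8 and 96 h only, but its RefSeq start lay under a peak in all 10 lists, since in the others the peak was assigned to AY074887.

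Among the 7 standard beta subunits 6 were listed throughout. Psmb3, a structural beta subunit, had 2 promoter peaks in each list to 72 h and 1 at 96 and 120 h. Its widest peak measured 464 to 690 bp to 72 h and 1293 and 1274 bp at the last times, so the pair had given way to 1 wide peak. The exception was Psmb1, also structural, with peaks at 4, 24, 48, 96 and 120 h of 727, 722, 505, 445 and 454 bp.

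Among the inducible subunits, Psmb8, on chromosome 17 beside Psmb9 and the peptide transporter gene Tap1, had a peak centred at -572 to -451 bp from its start in each list, 332 to 599 bp wide. A further peak over or just downstream of the start, 283 to 824 bp wide, was listed at 0, 12, 24, 36, 48, 72 and 96 h and not at 4, 8 and 120 h. A distal peak centred at -1529 to -1457 bp, annotated as exonic, was present in each list to 72 h and absent at 96 and 120 h. By 120 h only the middle of these 3 sites was listed. Psmb9 had an assigned promoter peak at 72 h alone, of 221 bp. Its RefSeq start lay under peaks assigned to the divergent neighbour Tap1 at 0, 4, 36, 72, 96 and 120 h.

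Psmb10, on chromosome 8, had narrow peaks of 235 and 234 bp around its start at 0 h, 1 peak of 715 bp at 4 h, and at 8 h 1 peak of 1761 bp. Later promoter peaks were of 235 bp at 24 h and 267 bp at 72 h, and none was listed at 12, 36, 48, 96 and 120 h. A site inside the gene, centred 1117 to 1283 bp downstream of the start, was listed as a peak of its own at 0, 4, 24, 36, 48, 96 and 120 h, with 898, 596, 589, 585, 580, 636 and 544 bp. The 8 h peak of 1761 bp covered it too. At the last times this downstream site was thus listed and the start was not.

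The 5 cap ATPases with peaks were Psmc1, Psmc2, Psmc3, Psmc4 and Psmc6. Psmc4 and Psmc6 were listed throughout, and Psmc3 in all lists but 24 h, with 686 to 938 bp. Psmc1 and Psmc2 had no promoter peak under the distance rule, since the centres of their 0 h peaks lay at -2024 and 1506 bp from the TSS used in the lists. Their RefSeq starts were under a peak in all 10 lists, of 718 bp at 0 h and 637 bp at 120 h for Psmc1 and of 794 and 535 bp for Psmc2. The absence of these promoters therefore follows from the annotated start.

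Of the 11 non-ATPase cap subunits 6 were listed throughout. Psmd11, a structural subunit, had 818 to 1274 bp and was absent at 24 and 36 h. Psmd7, the partner of Psmd14, was absent at 0 and 8 h and had 724 to 1074 bp otherwise. Psmd4, a ubiquitin receptor, was absent at 0, 4 and 48 h. Psmd6 had 672 to 906 bp and was absent at 96 h. Psmd13 had assigned promoter peaks of 507 to 564 bp from 0 to 48 h and none later. Its RefSeq start nonetheless lay under a peak in all 10 lists, assigned to the divergent neighbour Sirt3 at 72, 96 and 120 h, so its upstream sequence shown above was not without a listed peak at any time.

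Assembly chaperones guide the building of core and cap. Of 6 with a promoter peak 5 were listed throughout, and Psmg3 narrowed from 626 bp at 0 h to 292 bp at 120 h. The exception, Psmd10, was listed at 4, 36 and 96 h, but its RefSeq start was under a peak in all 10 lists, assigned to Atg4a in the others. Among activators, Psme2, Psme4 and the inhibitor Psmf1 were listed throughout, with 1044 to 1205, 1201 to 1423 and 811 to 1068 bp. Psme1, which forms the PA28 activator with Psme2, had peaks at 0, 8, 36, 48, 96 and 120 h of 912, 1202, 863, 939, 959 and 966 bp. Psme3, a nuclear activator, had 1299 bp at 0 h and 1023 bp at 120 h and was absent at 72 h. The promoter peaks of Psme4 and Psme3 were the widest of the family at 0 h together with that of Psmd11 (1209, 1299 and 1079 bp).

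Among the Usp genes, Usp14, the protease that binds the cap, was listed throughout with 797 to 945 bp. Of the 9 proteases grouped here by histone substrates, a group that need not hold every such protease, 6 had a promoter peak. In 4 of these it was in all lists, Usp12 and Usp46 among them with 1175 to 1330 and 1068 to 1381 bp. Usp21 was absent at 0 and 48 h and had 703 to 899 bp otherwise. Usp3 had 1245, 1487, 1519 and 1422 bp at 0, 4, 8 and 12 h, none from 24 to 96 h, and 1228 bp at 120 h. Usp44, Usp49 and Usp51 had distal peaks only.

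The other 31 Usp genes with promoter peaks included 15 listed throughout, the widest being Usp15, with 1497 to 1606 bp. Usp47 had 1418 to 1554 bp in each list from 0 to 72 h and no peak at 96 and 120 h. Usp40 had 528 to 1212 bp and was absent at 36, 96 and 120 h. Usp50 had a narrow peak of 282 to 348 bp from 0 to 48 h, in an intron 813 to 838 bp downstream of its start, and none later. Usp5 had 916 to 1427 bp to 96 h and none at 120 h. These are the 4 genes whose 0 h promoter peak was missing at the end, and Usp47 and Usp5 were wide when last listed (1445 and 1427 bp).

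Other Usp promoters were missing from some lists and listed at 120 h. Usp7, which controls p53 and its ligase Mdm2, had none at 0, 8, 12 and 36 h, and 846, 1033, 806, 977, 1392 and 1035 bp at 4, 24, 48, 72, 96 and 120 h. Usp10, a protease of p53 and of stress granule proteins, was absent at 0, 12 and 36 h and had 1019 to 1316 bp otherwise. Usp34 was absent at 0, 4, 24 and 36 h and had 1331 to 1646 bp in the other lists. Usp31 was absent at 0 and 8 h and had 954 to 1249 bp otherwise. Usp48 was absent at 8, 24, 36 and 48 h, Usp38 at 12, 24 and 36 h, and Usp11 at 4, 12 and 48 h. The X-linked Usp9x ranged from 445 to 2387 bp and was absent at 8 and 72 h. Usp20 was absent at 4 and 72 h by assignment, but its RefSeq start was under a peak in all lists, assigned to BC005624 in those.

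These gaps were common. Of the promoters in 2 to 9 lists, 13 of 14 proteasome and 15 of 18 Usp promoters were missing from a list that lay between lists holding them. Over all genes 70.4% of such promoters had a gap. The median width when listed was 876 bp for the partly listed proteasome promoters and 828.5 bp for those listed throughout, and 1056 and 964 bp for Usp promoters. The partly listed promoters of the families were thus no narrower than the constant ones. These counts follow the assigned gene. They include Psma4, Psmd10 and Usp20, whose RefSeq starts were under a peak in all 10 lists, in part assigned to neighbouring genes. For the other gaps, with 1 list per time, a missing peak cannot be told apart from a peak that the authors' processing left out.

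Judged by RefSeq starts and any overlapping peak, whatever its gene, 29 of 40 proteasome starts and 16 of 34 Usp starts were covered in all 10 lists. Of the starts covered in some list these were 74.4% and 55.2%, against 46.1% of all RefSeq starts covered in some list. The window ran from 250 bases before to 50 bases after the start, and this count was added after the lists had been examined. A divergent neighbour whose start lay within 1000 bp was present for 6 of the 40 proteasome and 5 of the 34 Usp starts. One of these is Usp35, without a promoter peak of its own, whose start was under a peak assigned to Kctd21 in all lists. Psmb11, the thymus-specific beta subunit, and Usp17lb, Usp43, Usp44, Usp49, Usp51 and Usp54 had no promoter peak either. Of these, Psmb11, Usp17lb, Usp49, Usp51 and Usp54 matched the RefSeq table, and their starts were covered in no list.

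The distal sites of the families lay in different places. Of 101 distal regions of proteasome genes 61.4% were intergenic and 29.7% intronic, with a median distance of 15108 bp from the start, and 96 of them lay within 50 kb. Of 185 distal regions of Usp genes 39.5% were intergenic and 56.2% intronic, at a median of 23903 bp, and 134 lay within 50 kb. Over all distal regions 48.6% were intergenic and 46.0% intronic, at a median of 23027 bp, and 72.4% lay within 50 kb. Proteasome regions were thus closer to their start, while Usp regions matched the distance of all genes and lay more often in introns. A B2 SINE repeat was annotated at 12.9% of proteasome, 4.86% of Usp and 5.30% of all distal regions, and an ERVL-MaLR repeat at 10.9%, 6.49% and 5.53%.

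By gene, 24 of 27 proteasome genes with distal peaks at 0 or 120 h had fewer at 120 h and 3 had as many. Of 32 Usp genes 26 had fewer, 4 as many and 2 more. The share with fewer over all genes was 82.7%, so both families (88.9% and 81.2%) were near it. The genes with more were Usp8, a protease of endosomal sorting, and Usp32, each going from 0 to 1 distal peak. The Usp8 site was also in each list from 4 to 72 h and was missing at 0 and 96 h. The Usp32 site was listed from 48 h on. At 36 h, 13 proteasome genes had more distal peaks than at 0 h and 5 fewer, and 17 Usp genes had more and 6 fewer. The shares with more, 40.6% and 39.5% of the genes with a distal peak in any list, were near the 34.9% of all genes.

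Among proteasome genes Psmc1 held the most distal peaks, with 7, 6, 6, 7, 8, 10, 9, 7, 3 and 3 from 0 to 120 h, 1 of which in each list is the peak over its RefSeq start. Psma1 went from 5 to 3, with 7 at 12 h, and Psma6 from 3 to 2, with 6 at 36 and 72 h. Psmd7 went from 5 to 1, Psmd14 from 4 to 0 and Psmb7 from 4 to 0. Psma5 had none at 0, 4 and 8 h, then 1, 1, 1, 3 and 2 from 12 to 72 h, and none at 96 and 120 h.

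Among Usp genes Usp6nl, the gene that is not a protease, had the most, with 13, 13, 13, 13, 10, 12, 13, 9, 5 and 3. Usp46, which with its cofactor acts on histones and receptors, had 4, 5, 5, 4, 7, 9, 11, 6, 1 and 0. Its close relative Usp12 had 5, 3, 4, 7, 8, 8, 10, 8, 4 and 1. Both relatives had most distal peaks at 48 h and fewest at 120 h, while their promoters were listed throughout. Usp25 went from 7 to 2, Usp38 from 7 to 1, Usp24 from 5 to 0 and Usp42 from 4 to 0. Usp35 had 4 at both ends and 3 to 5 between.

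**Figure D3:**
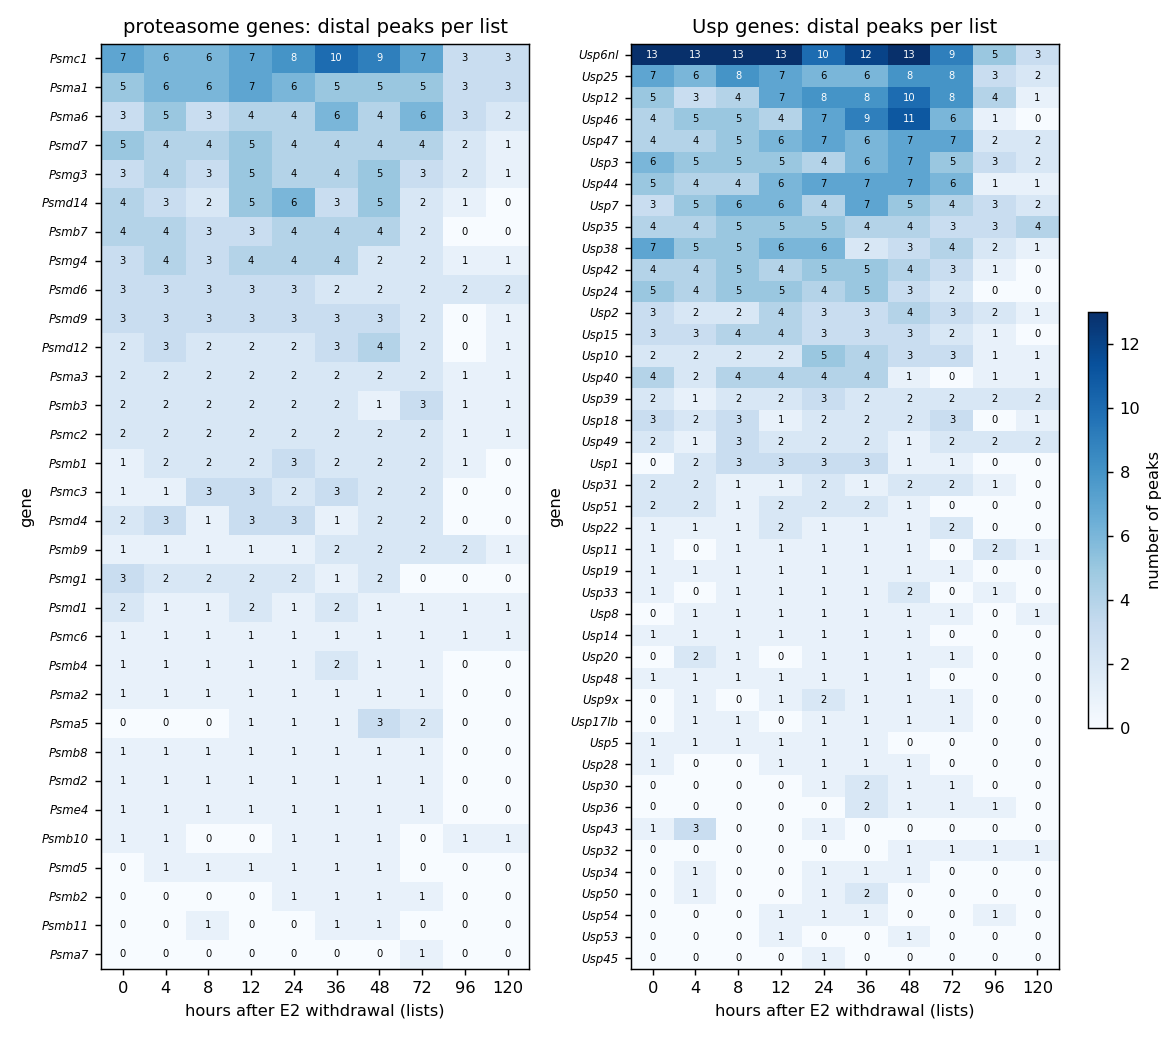
Number of distal peaks of each proteasome gene (left) and Usp gene (right) in each list (x axis, hours after E2 withdrawal), for genes with at least 1 distal peak, ordered by their sum. Numbers in the cells are the counts. Usp46 and Usp12 peak at 48 h, with 11 and 10, and the 96 and 120 h columns are the palest.

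Regions were sorted by when they were listed. A region counted as gained if the 72, 96 and 120 h lists held it and the 0, 4 and 8 h lists did not, and as lost in the opposite case. Transient regions were missing from the lists of 0, 4, 96 and 120 h but held by 2 or more neighbouring lists between 12 and 72 h. Of the 101 proteasome distal regions 1 was gained, 9 were lost, 9 were transient and 13 were in all 10 lists. These 13 include the regions over the RefSeq starts of Psmc1 and Psmc2, which the distance rule counts as distal. Of the 185 Usp distal regions 3 were gained, 21 lost, 23 transient and 13 in all lists. Without Usp6nl the Usp counts were 2, 17, 22 and 12 of 169. Over all genes 2.56% were gained, 14.0% lost, 10.9% transient and 9.13% in all lists. The proteasome shares were 0.99%, 8.91%, 8.91% and 12.9%, and the Usp shares 1.62%, 11.4%, 12.4% and 7.03%. The all-gene share lies within the Wilson interval of each. The other 69 proteasome (68.3%) and 125 Usp distal regions (67.6%) met none of these rules, against 63.5% of all distal regions. Among them are regions listed up to 72 h and missing at 96 and 120 h. The rule for lost leaves these out, so the lost shares do not give the full extent of loss. One promoter region was lost as well, the intronic site of Usp50.

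The 4 gained regions were these. In the Usp32 gene, which encodes a membrane-anchored protease, the site was chr11:85123114-85124096 (mm10), in an intron 16349 bp from the start and annotated as a B1 SINE, listed at 48, 72, 96 and 120 h. Near Psma6, an alpha subunit gene, chr12:55436821-55437798 was intergenic, 38484 bp from the start, and listed at 36, 72, 96 and 120 h. For Usp38 it was chr8:80952142-80952674, intergenic, 62498 bp from the start and listed at 72, 96 and 120 h. Usp6nl had chr2:6278704-6279646, annotated as intronic although it lies at -43582 bp from the Usp6nl start, listed in each list from 24 h on. Nearest-gene assignment does not show which gene such a site serves.

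Lost regions were spread over 8 proteasome and 13 Usp genes. The assembly chaperone Psmg1 lost 2, at chr16:95964452-95964930, intergenic and listed to 48 h, and at chr16:95984823-95985366, intronic, in an ERVL-MaLR repeat and last listed at 48 h. Psmg3, Psmg4, Psmd6, Psmd9, Psmd12, Psma1 and Psmb7 lost 1 each. Usp6nl lost 4, Usp24 and Usp38 lost 3 each, and Usp46 and Usp42 lost 2 each. The Usp24 regions were chr4:106290151-106290687 and chr4:106293211-106294088, at -25801 and -22551 bp from the start and last listed at 12 and 36 h, and chr4:106375752-106376237, in an intron and listed to 48 h. Those of Usp38 were last listed at 12, 24 and 48 h, so the losses within a gene did not fall in 1 step.

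Transient regions were in 6 proteasome and 17 Usp genes. Usp46 had 5, at 3301, 7969, 26390, 80483 and 122745 bp from its start, first listed at 8, 36, 36, 24 and 48 h and last at 48, 72, 48, 48 and 72 h. All 5 were listed at 48 h, the time of its highest distal count. Psmc1 had 3, Psma5, Usp3 and Usp10 had 2 each, and Psmg3 had 1, in an ERVL-MaLR repeat and listed from 12 to 72 h. The Psma5 sites lay at -9841 and -7535 bp from the start and were listed from 12 and from 48 h, both to 72 h.

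**Figure D4:**
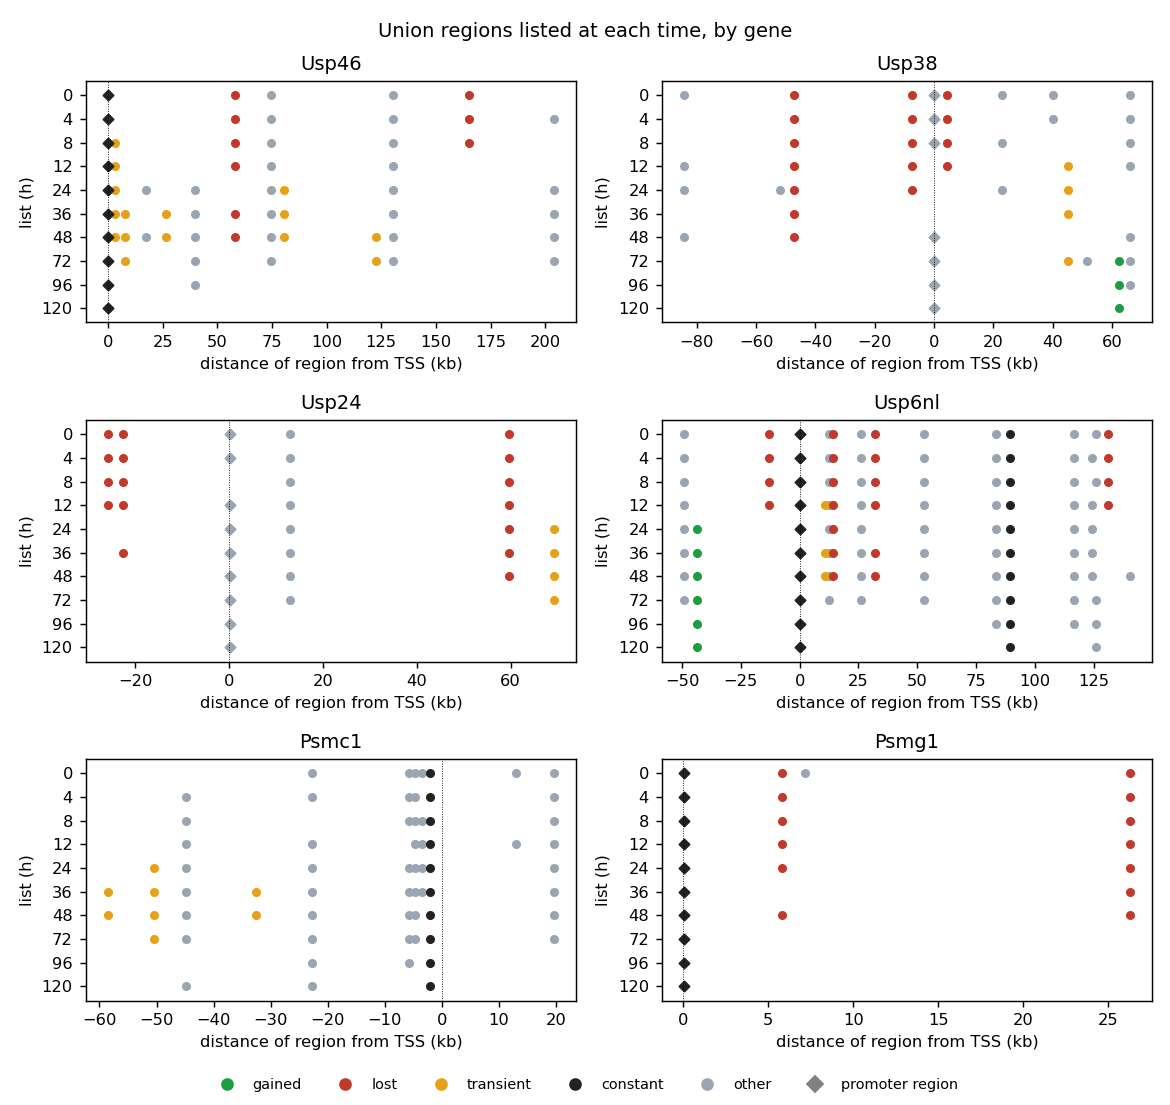
Union regions of 6 genes by distance from the TSS in kb (x axis) and list in hours (y axis, 0 h at the top). Each point is a region listed at that time, coloured as gained, lost, transient, constant or other, with diamonds for promoter regions. Usp46 shows 5 transient and 2 lost regions around a constant promoter, and Usp38, Usp24 and Usp6nl lost 3, 3 and 4.

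Genes of the same pathway outside the naming rule were counted the same way. Of 10 partners of the proteasome 7 had a promoter peak at 0 h and 7 at 120 h, 5 of them at both. Among these, Nfe2l1, the transcription factor of proteasome genes, was listed in all 10 lists, and the nuclear import factor Akirin2 in 8. Of 27 deubiquitinases of other families 18 had a promoter peak at 0 h, all 18 had it at 120 h too, and 23 had one at 120 h. Distal peaks of these deubiquitinases went from 50 to 14, with 4 gained (3.85%) and 15 lost (14.4%) among 104 regions, against 2.38% and 12.5% of all regions. Distal peaks of the partners went from 17 to 9, with 1 gained (2.27%) and 4 lost (9.09%) among 44 regions. At 120 h the distal peaks were 28.0% and 52.9% of their 0 h number in these lists, against 32.8% over all genes.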

How the data were processed

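ATAC-seq peaks of 20 samples were analysed from the 10 annotated lists the authors deposited, 1 per time point for both replicates. The submitters' processing notes name BWA, MACS2 2.0, STAR 2.5 and mm9. The sources used here do not say whether reads were pooled or shifted for Tn5. HOMER annotated the peaks against mm10, per the file headers. Positions and distances to the TSS are in bp as deposited. The deposited score was 0 for every peak (0 of 504887 differed), so width was the size measure.

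Peaks overlapping by at least 1 bp were chained into 88351 regions, and a region took the gene of its widest peak. The scripts (Python 3.11.15, pandas 2.3.3, scipy 1.17.1) were tested on simulated data. Sequences came from the RefSeq table of GRCm38.p6. Members and lists were chosen with earlier results of these data known. The text names inducible subunits, activators and Usp14, promoters in 2 to 9 lists (at most 15 per family), members without promoter peaks, those with most gained, lost, transient or distal regions, and the widest and narrowest 0 h promoters. Names outside this serve as role examples chosen after their values were seen. Alternatives changed the promoter distance, the list compared, the list length and the pattern rule. One pathway list, of ubiquitin and its activating enzymes, is not reported here. Replicates could not be compared, and columns of other samples numbered 0.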

Additional observations from a re-analysis of the deposited data

How the results depend on the processing

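Over 17 results and 107 alternative values, 83 stayed within the range set for no change, 23 moved and 1 changed sign. When each list kept only its widest peaks, as many as in the 120 h list, the proteasome distal log2 ratio turned from -1.54 to 0.13 and the Usp ratio went to -0.42. The proteasome promoter peaks kept were then 100% and the distal ones 55.0%, against 84.0% and 35.4% over all genes. Gained regions were then 3 (proteasome) and 5 (Usp), lost regions 3 and 9, and Usp transient regions 6. With the widest 50% of each list, the Usp ratio was -3.17 and Usp distal peaks kept 4.08%, against -2.12 and 15.2% over all genes, with gained regions 2 and 1, lost regions 5 and 12, and Usp transient regions 12. With the 96 h list in place of 120 h, Usp distal peaks kept were 27.3% and the ratio -1.16. Comparing 0 and 4 h with 96 and 120 h gave 4 and 8 gained and 33 and 55 lost regions. Ignoring the 120 h list gave 2 and 8 gained regions. Gained, lost and transient shares over all regions are not given for these alternatives. The family counts therefore cannot be set against a background there. Fewer peaks enter where the lists are shortened, and the cause of these shifts, list length included, was not tested. No paired analysis was possible because the replicates of a time share 1 list. The lists hold no counts, so depth and its effect on missing peaks could not be assessed.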

Other observations

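The rule counts a gene only where the lists assign it a peak, and several further family members with a RefSeq start had none. For 3 of them the start lay under a peak assigned to a divergent neighbour. The start of Psmc5, a cap ATPase, was under a peak assigned to Ftsj3 in 7 lists. The start of Usp37 was under a peak assigned to Cnot9 in 9 lists, and that of Usp27x under a peak assigned to Gm14379 in 8. These neighbours are transcribed away from the same site, so the peaks cannot be attributed to either gene from the lists.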
